A study of Homo sapiens with 8 samples.

Results

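Receptor tyrosine kinases of stem cells are treated here as a set of 10 genes: KIT, KDR, the FGF receptors FGFR1, FGFR2, FGFR3 and FGFR4, the insulin receptor family members IGF1R and INSR, and the ERBB family members ERBB2 and ERBB3. Their probe sets were taken from a single table of array intensities, by keeping each probe set that the platform annotation gives to 1 gene symbol and that symbol alone. This found 44 of the 54675 probe sets on the array, and all 10 genes had at least 1 probe set bright enough to test, among 14726 genes tested in all. The cells were of H1, an established line of human embryonic stem cells, cultured over irradiated mouse embryonic fibroblasts. They were sorted by forward and side scatter, optical signals that change with size and granularity, into a small fraction (4 arrays) and a large fraction (4 arrays). The labels number the arrays of each fraction as biological repeats and the series text calls the sorts independent, but whether small and large arrays of 1 number came from the same sort is not stated. Small and large cells carried no other treatment or genetic difference in the labels. All values come from 1 cell line. Whether mouse feeder cells were removed before RNA was taken is not stated in the labels.

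Receptor tyrosine kinases are membrane proteins that bind a growth factor outside the cell and, once paired, phosphorylate tyrosines on themselves and on adaptor proteins inside it. The adaptors pass the signal to the RAS-MAPK and PI3K-AKT kinase cascades, which control growth, survival and fate. In cultures of human embryonic stem cells, FGF2 acts through the FGF receptors, and insulin and IGFs act through INSR and IGF1R, to keep cells undifferentiated and alive. KIT is the receptor of stem cell factor, KDR the main VEGF receptor of endothelial cells and their mesodermal progenitors, and ERBB3 binds neuregulins and signals mostly together with ERBB2, which has no known ligand of its own.

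All 10 receptor transcripts had a lower mean in small than in large cells, as did 44.0% of all genes tested, and 5 of them passed the test: KIT, KDR, FGFR2, INSR and ERBB2. No receptor was higher. These calls depended on the processing: limma called 0 receptors when the scaling was left as deposited, when arrays were centred by their medians, and when no variance trend was fitted. In these 3 settings the 10 differences were again negative, as were 56.0%, 39.6% and 44.0% of all genes. An unadjusted p under 0.05 was reached by 6, 6 and 8 receptors, against 3.36%, 10.7% and 15.2% of all genes. The median difference over the 10 genes, small minus large on the log2 scale, was -0.97, against 0.05 over all genes tested. Of all tested genes, 1.69% were called lower, at an adjusted p under 0.05 in limma. Differences of -1 or less were found for 4 of the 10 receptors and for 1.72% of all genes. In 6 of the 10 receptors, every small array lay under every large array, which was the case for 5.07% of all genes. The 10 members were chosen with earlier results of these data known, so these shares are no independent test of the set. The arrays received equal amounts of labelled RNA and were normalized to each other, so each value is a level relative to the RNA measured, and fewer cells with a transcript cannot be told apart from less of it per cell.

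**Figure D1:**
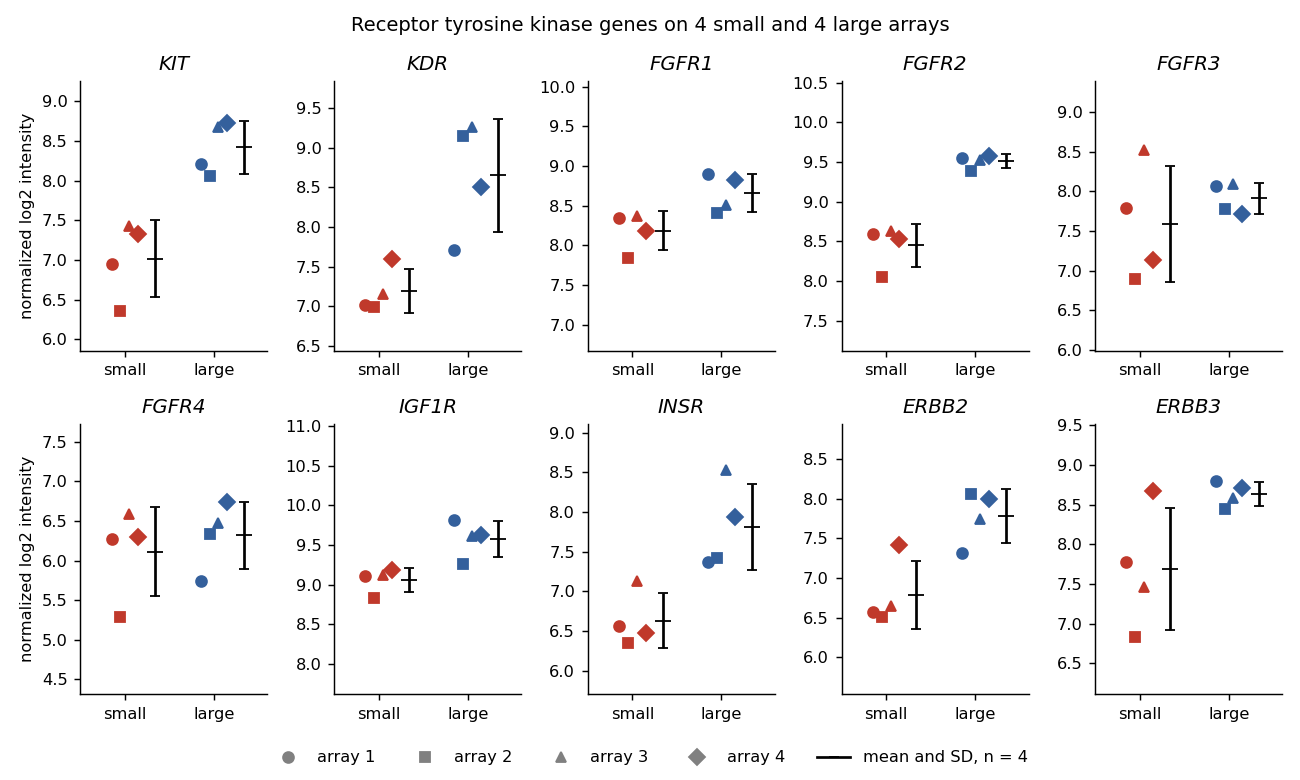
Normalized log2 intensity of the probe set that stands for each of the 10 receptor genes, on 4 small arrays (red, left) and 4 large arrays (blue, right), with group mean and SD. Every panel spans the same number of log2 units. The groups are apart for KIT, KDR, FGFR1, FGFR2, IGF1R and INSR and overlap for FGFR3, FGFR4, ERBB2 and ERBB3.

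The stem cell factor receptor KIT, measured by 1 probe set, had log2 intensities of 6.95, 6.36, 7.44 and 7.33 on small arrays 1 to 4, against 8.22, 8.06, 8.68 and 8.73 on large arrays 1 to 4. The highest small array stayed under the lowest large array. KIT was thus 2.64-fold lower in small cells (small minus large -1.40 ± 0.24 SE with 4 arrays per group, adjusted p = 0.0123 in limma), and with 1 array left out the difference ran from -1.53 to -1.18. It kept its call in 6 of 8 such fits, with an adjusted p of 0.0514 without small array 1 and 0.0534 without large array 4.

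KDR had log2 intensities of 7.02, 6.99, 7.16 and 7.60 on small arrays 1 to 4, against 7.71, 9.15, 9.26 and 8.502 on large arrays 1 to 4. Large array 1 lay close above small array 4, while the other three large arrays were well above all small arrays. The gene was 2.75-fold lower in small cells (-1.46 ± 0.29 SE, adjusted p = 0.0236 in limma). This was the most negative difference among the 10 receptors, and 0.163% of all genes tested were as low or lower. The difference was -1.78 without large array 1, and the adjusted p was above 0.05 in 5 of 8 fits with 1 array left out, reaching 0.087 without small array 1.

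KIT and KDR are next to each other on chromosome 4, with the PDGF receptor gene PDGFRA on the other side of KIT. PDGFRA, a close relative of KIT, differed by 0.04 ± 0.25 SE (adjusted p = 0.957 in limma), and its range was 5.79 to 6.39 on small arrays and 5.63 to 6.54 on large arrays. Among the 5 tested genes on each side of the KIT and KDR pair, which were chosen after the receptor values were known, only TMEM165, a Golgi membrane protein gene, passed the test (-0.74 ± 0.16 SE, adjusted p = 0.0304), a call kept in 2 of 8 fits with 1 array left out. The per-array log2 ratio of KIT to KDR was at 0.06 in small relative to large cells (exact two-sided permutation p = 0.914).

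All FGF receptors had a lower mean in small cells, and only FGFR2 among them passed the test. FGFR2 had log2 intensities of 8.59, 8.05, 8.63 and 8.53 on small arrays 1 to 4, against 9.55, 9.38, 9.53 and 9.58 on large arrays 1 to 4. The large arrays lay within a narrow band, and all small arrays were below it. FGFR2 was 2.08-fold lower in small cells (-1.06 ± 0.15 SE, adjusted p = 0.00754 in limma), the smallest p of the 10 receptors, and it alone kept its call in 8 of 8 fits with 1 array left out. Of its 11 probe sets, 4 were bright enough to test, and 3 of these passed over all probe sets: 203638_s_at (-1.06 ± 0.15 SE), 208228_s_at (-0.90 ± 0.16 SE) and 203639_s_at (-1.54 ± 0.34 SE). The fourth, 211401_s_at, was at -1.503 ± 0.49 SE (adjusted p = 0.157). Its mean was 3.37 on small arrays, under the brightness limit for testing of 3.62, and 4.87 on large arrays. It was thus bright enough to test only through the large arrays. Over all probe sets tested 1.30% were called lower.

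FGFR1 had log2 intensities of 8.35, 7.85, 8.37 and 8.18 on small arrays 1 to 4, against 8.90, 8.40, 8.51 and 8.83 on large arrays 1 to 4. The groups were apart by a small margin, with a difference of -0.47 ± 0.17 SE that did not pass (adjusted p = 0.186 in limma). All 7 of its probe sets were tested, and their differences were all negative, from -0.96 to -0.12, with 0 called.

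FGFR3 ranged from 6.90 to 8.53 on the small arrays and from 7.71 to 8.09 on the large arrays. Small array 3 was above every large array, and the difference was -0.33 ± 0.29 SE (adjusted p = 0.629 in limma). FGFR4 ranged from 5.29 to 6.59 on small arrays and from 5.74 to 6.74 on large arrays, a difference of -0.21 ± 0.29 SE (adjusted p = 0.777) that became 0.06 without small array 2. Whether FGFR2 changed more than its relatives was asked with the per-array log2 ratio of each pair of FGF receptors. The ratio of FGFR1 to FGFR2 was higher in small cells by 0.58 on the log2 scale, the ratio of FGFR2 to FGFR3 lower by 0.73 (log2 difference -0.73) and that of FGFR2 to FGFR4 lower by 0.85 (-0.85). Small and large arrays did not overlap in any of these ratios, and each gave an exact two-sided permutation p of 0.0286, the smallest that 70 assignments allow. After adjustment over the 9 pairs of related receptors compared, p was 0.0857 for each, so unequal change among the FGF receptors did not pass. With all tested probe sets of each gene averaged, the unadjusted permutation p was 0.0857 for FGFR2 to FGFR4 and stayed 0.0286 for the others. On the deposited scaling and with median centring it was 0.0571 for FGFR2 to FGFR3. A dimmer probe set of FGFR4, 211237_s_at, was at -1.20 ± 0.56 SE, and 1554962_a_at was at 0.02 ± 0.36 SE.

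**Figure D2:**
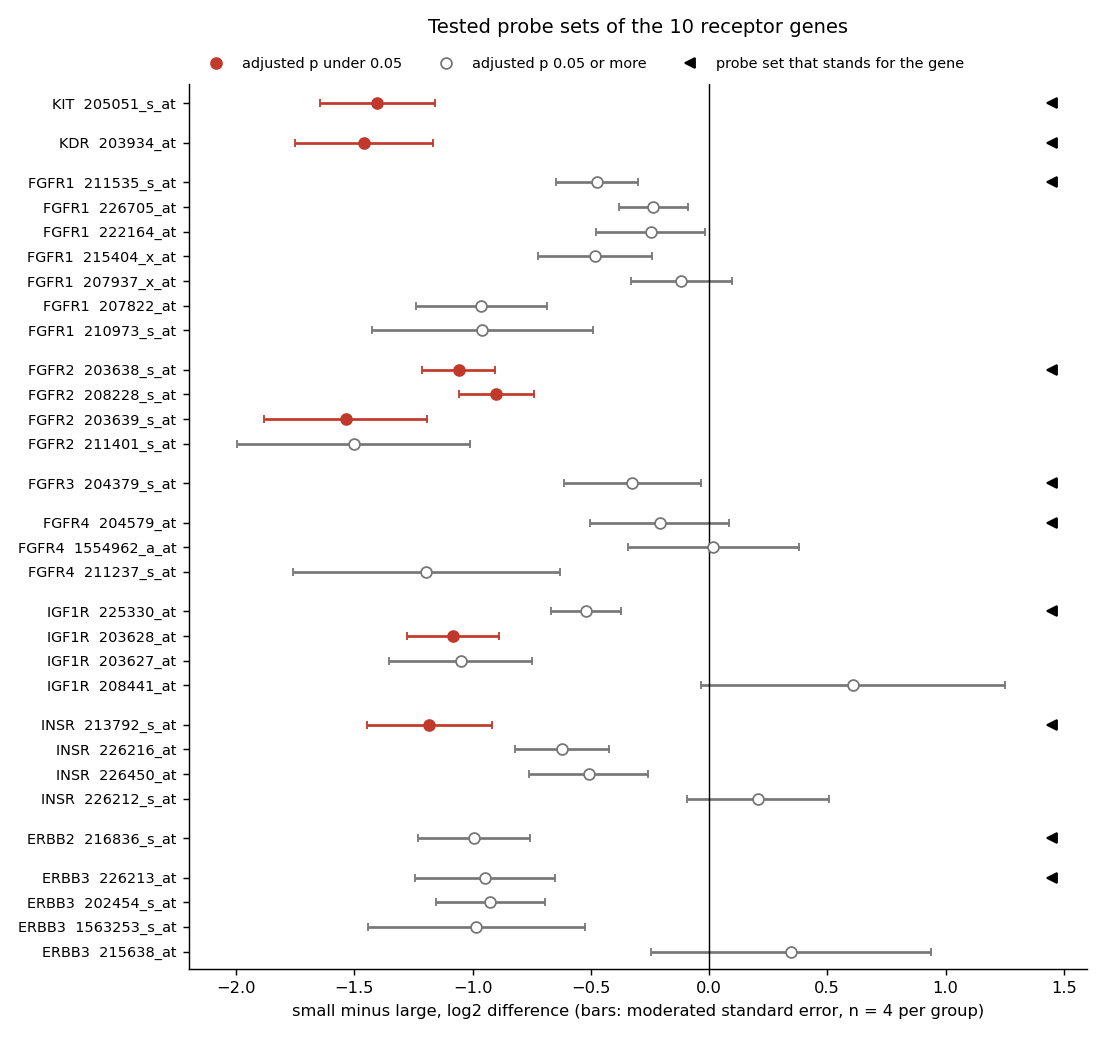
Log2 difference, small minus large, of the 30 tested probe sets of the 10 receptor genes, with moderated standard errors and n = 4 per group. Filled red points passed an adjusted p of 0.05 over all probe sets, and triangles at the right edge mark the probe set that stands for its gene. Of the 30 probe sets, 26 lie left of 0, and the 7 that passed belong to KIT, KDR, FGFR2, IGF1R and INSR. Over all tested probe sets 1.30% were called lower, and the median difference was 0.02.

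In the insulin receptor family, INSR had log2 intensities of 6.57, 6.35, 7.14 and 6.48 on small arrays 1 to 4, against 7.37, 7.42, 8.53 and 7.93 on large arrays 1 to 4. No small array reached the lowest large array. INSR, which binds insulin and also IGF2, was 2.27-fold lower (-1.18 ± 0.26 SE, adjusted p = 0.0346 in limma). Its other three tested probe sets gave smaller values, which were -0.62 ± 0.20 SE for 226216_at, -0.51 ± 0.25 SE for 226450_at and 0.21 ± 0.30 SE for 226212_s_at, and none of these passed. The mean over the 4 probe sets was at -0.53 (adjusted p = 0.191), so the size and the call of INSR rest on 213792_s_at.

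IGF1R, the receptor of IGF1 and IGF2, had log2 intensities of 9.10, 8.83, 9.12 and 9.18 on small arrays 1 to 4, against 9.81, 9.27, 9.61 and 9.63 on large arrays 1 to 4. The groups were apart on this probe set, 225330_at, but the difference of -0.52 ± 0.15 SE did not pass (adjusted p = 0.0966 in limma). A dimmer probe set of the same gene, 203628_at, ranged from 6.37 to 7.15 on small arrays and from 7.83 to 8.16 on large arrays. Its difference of -1.08 ± 0.19 SE passed over all probe sets (adjusted p = 0.0211), and 203627_at was at -1.05 ± 0.30 SE (adjusted p = 0.112). Between the 2 genes, the log2 ratio of INSR to IGF1R was at -0.66 in small relative to large cells (exact two-sided permutation p = 0.0571, adjusted p = 0.129). With all tested probe sets of each gene averaged, that ratio was at -0.01, so its size rests on the probe sets chosen.

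ERBB2 had log2 intensities of 6.57, 6.50, 6.65 and 7.42 on small arrays 1 to 4, against 7.31, 8.06, 7.75 and 7.998 on large arrays 1 to 4. Small array 4 lay above large array 1, so the groups overlapped. ERBB2 was 1.99-fold lower in small cells (-0.99 ± 0.23 SE, adjusted p = 0.0473 over genes in limma), a call at the edge of the threshold: over all probe sets the same measurement had an adjusted p of 0.0573. With 1 array left out the difference ran from -1.21 to -0.90, and the call held in 2 of 8 fits.

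ERBB3 had log2 intensities of 7.77, 6.83, 7.46 and 8.68 on small arrays 1 to 4, against 8.80, 8.44, 8.59 and 8.70 on large arrays 1 to 4. Small array 4 was again the highest of its group and stood at the level of the large arrays. The difference was -0.95 ± 0.29 SE and did not pass (adjusted p = 0.122 in limma). Without small array 4 it was -1.28 and passed (adjusted p = 0.0142). A second probe set, 202454_s_at, gave -0.92 ± 0.23 SE with no overlap between the groups (adjusted p = 0.0693), and the log2 ratio of ERBB2 to ERBB3 was at -0.05 in small relative to large cells (exact two-sided permutation p = 0.914).

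Of the 44 receptor probe sets, 14 had a mean over the 8 arrays under the brightness limit for testing (3.62 on the log2 scale), and they came from 7 of the genes, 7 of them from FGFR2. Their means ran from 1.73 to 3.61. One of these, 240913_at of FGFR2, lay just under the limit, with an untested difference of -1.79 and every small array under every large array. Just above the limit lay 208441_at of IGF1R at 3.67, with a difference of 0.61 ± 0.64 SE and 1.38 on large array 1. The limit was on the mean over all 8 arrays, so a tested probe set could be under it in 1 fraction. On small arrays this held for 211401_s_at of FGFR2 (3.37) and 211237_s_at of FGFR4 (3.41), on large arrays for 208441_at (3.36). Among the 30 tested probe sets 7 were lower and 0 higher, against 1.30% lower and 0.198% higher over all probe sets. In 13 of the 30 the groups did not overlap and small arrays were lower, against 5.46% of all probe sets. The 4 that were positive were 1 each of FGFR4, IGF1R, INSR and ERBB3, and none of them passed. Names ending in _s_at mark probe sets whose probes match several transcripts. Such probe sets gave the calls of KIT, FGFR2, INSR and ERBB2, while KDR was called on a probe set without that ending.

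The start regions of KIT, KDR, FGFR2 and INSR, the 4 receptors with the smallest p, are shown because their transcripts were lower together. Each is the stretch of 250 bases before the start of the gene in RefSeq's table for GRCh38.p14, written 5′ to 3′ on the strand of the gene, and capitals mark the GC box GGGCGG or its reverse complement, a motif bound by SP1 family factors. KIT lies at chr4:54657707-54657956 on the plus strand. KDR is at chr4:55125596-55125845, the most upstream of the starts listed for FGFR2 at chr10:121598445-121598694 and INSR at chr19:7294415-7294664, all on the minus strand.
KIT: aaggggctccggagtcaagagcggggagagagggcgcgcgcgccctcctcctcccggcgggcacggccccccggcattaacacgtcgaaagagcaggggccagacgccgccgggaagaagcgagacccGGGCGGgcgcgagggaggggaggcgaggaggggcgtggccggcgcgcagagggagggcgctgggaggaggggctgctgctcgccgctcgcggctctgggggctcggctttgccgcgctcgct
KDR: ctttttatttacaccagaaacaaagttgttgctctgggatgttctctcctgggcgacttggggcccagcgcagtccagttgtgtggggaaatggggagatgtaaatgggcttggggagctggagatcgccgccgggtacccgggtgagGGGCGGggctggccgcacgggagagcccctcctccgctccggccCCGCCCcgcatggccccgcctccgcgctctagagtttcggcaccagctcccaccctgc
FGFR2: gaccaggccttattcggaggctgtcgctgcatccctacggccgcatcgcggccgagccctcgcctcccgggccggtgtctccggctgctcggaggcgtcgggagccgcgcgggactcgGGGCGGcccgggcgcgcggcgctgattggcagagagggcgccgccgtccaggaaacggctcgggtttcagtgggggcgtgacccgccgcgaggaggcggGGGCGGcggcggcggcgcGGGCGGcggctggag
INSR: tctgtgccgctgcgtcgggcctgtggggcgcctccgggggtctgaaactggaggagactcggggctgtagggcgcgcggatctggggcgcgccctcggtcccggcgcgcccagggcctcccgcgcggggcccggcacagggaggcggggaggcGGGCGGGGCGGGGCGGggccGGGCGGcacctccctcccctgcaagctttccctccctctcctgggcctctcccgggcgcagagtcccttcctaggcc
The motif occurred 1 time in the window of KIT, 2 times in KDR, 3 times in FGFR2 and 4 times in INSR, where some of the matches overlap. Both strands were searched. Of 35116 windows of the same length in the table, 42.6% held it, and it occurred 0 times in the window of ERBB2. Receptors that did not pass held it as well, 8 times in FGFR3, 7 times in the first of 2 windows of FGFR4 and 2 times in IGF1R. The 4 other windows listed for FGFR2 held it 0, 0, 1 and 0 times. The windows of KIT, KDR, FGFR2 and INSR held 34, 17, 42 and 28 CG dinucleotides, against a median of 11 over the table. Receptors that did not pass had as many, with 48 in IGF1R, 40 in FGFR3 and 24 in the first window of FGFR4, ERBB2 had 23, and the other FGFR2 windows had 3 to 7. A match describes the letters and does not show that a factor binds there.

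Beside the receptors, the genes of their pathway were counted in lists. Of 37 tested genes among the other receptor tyrosine kinases, 0 were called in either direction by limma, and the median difference was -0.22. An unadjusted p under 0.05 was reached by 6 of them with a negative difference and 0 with a positive one, against 1178 and 1253 of the 14726 genes tested, which together are 16.5%. The TAM family receptor AXL was at -1.005 ± 0.25 SE (adjusted p = 0.0611) and FLT1, another VEGF receptor, at -0.75 ± 0.20 SE (adjusted p = 0.0727). FLT1 ranged from 7.03 to 7.92 on small arrays and from 8.12 to 8.36 on large arrays. In 5 of the 37 genes all small arrays were under all large arrays, against 5.07% of all genes.

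Downstream of the receptors, 0 of 19 tested adaptor and substrate genes were called, with a median of 0.03 and a range from -0.33 to 0.60. None reached an unadjusted p under 0.05, and the central adaptor GRB2 was at -0.14 ± 0.16 SE (adjusted p = 0.723 in limma). The members with the smallest p were DOK1, a docking protein, at 0.57 ± 0.27 SE (adjusted p = 0.314), and DOK4 at 0.60 ± 0.34 SE (adjusted p = 0.413). Of 13 tested genes of the RAS-MAPK and PI3K-AKT cascades, 1 was higher and 0 lower, and the median was 0.04. The gene called higher was PIK3CD, a catalytic subunit of PI3 kinase best known from white blood cells (0.70 ± 0.17 SE, adjusted p = 0.0497). This call was at the edge of the threshold: it held in 0 of 8 fits with 1 array left out, and the mean over the probe sets of the gene was at -0.15. Of all genes, 0.299% were called higher. Its range was 7.57 to 7.99 on small arrays and 6.88 to 7.34 on large arrays.

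Of 11 tested ligand genes, 0 were called, with 2 lower and 1 higher at an unadjusted p under 0.05, and the median was 0.00. The ERBB3 ligand gene NRG1 was at 0.89 ± 0.22 SE (adjusted p = 0.062 in limma), with 5.73 to 6.31 on small arrays and 4.81 to 5.34 on large arrays. FGF4 was at -0.78 ± 0.20 SE (adjusted p = 0.0678). The stem cell factor gene KITLG was at -0.04 ± 0.15 SE and FGF2 at 0.00 ± 0.19 SE. Among 14 tested co-receptors and ligand-binding proteins, 1 was called, the WNT co-receptor LRP6, which was lower (-1.01 ± 0.16 SE, adjusted p = 0.00754), and the median was 0.08. Of 22 tested genes whose products limit receptor signalling, 1 was lower, LRIG2, a membrane protein of the family whose member LRIG1 promotes the loss of ERBB receptors (-1.04 ± 0.24 SE, adjusted p = 0.0452), a call that held in 2 of 8 fits with 1 array left out. LRIG1 itself was at -0.60 ± 0.16 SE and did not pass (adjusted p = 0.0772), and the median of this list was 0.05. Whether the receptors differ from any of these lists was not tested.

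**Figure D3:**
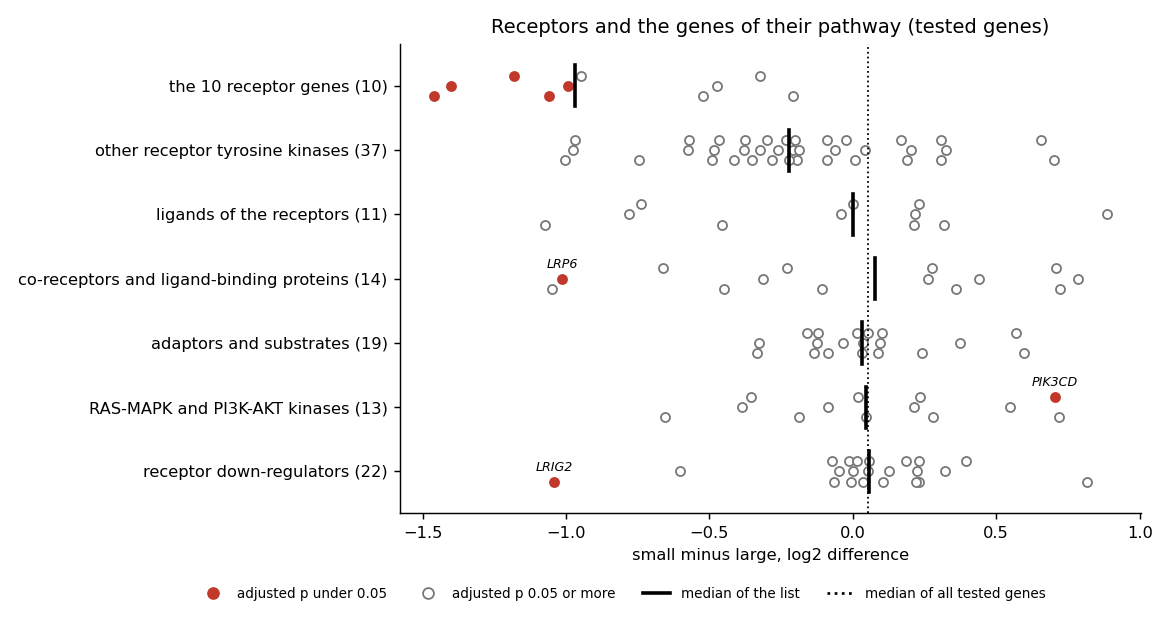
Log2 difference, small minus large, of each tested gene of the receptor set and of 6 pathway lists (number of tested genes in brackets). Black bars are list medians, the dotted line is the median of all genes at 0.05, and filled points passed an adjusted p of 0.05. The receptor median is -0.97 and that of the other receptor tyrosine kinases is -0.22. The lists of ligands, co-receptors, adaptors, kinases and down-regulators have medians from 0.00 to 0.08.

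On the probe set that stands for each gene, the 10 receptors shared their lowest small array. Small array 2 had the lowest value of its group for 10 of the 10 genes, whereas it was the lowest small array for 27.8% of all genes tested. Most other tested probe sets of the same genes did not share this order. Small array 2 was the lowest small array on 207937_x_at of FGFR1 (6.19), 203639_s_at of FGFR2 (3.83) and 226450_at of INSR (5.43). The same held for 203628_at (6.37) and 203627_at (4.77) of IGF1R. On every other one of them a different small array was the lowest. Small array 2 was the highest on 215404_x_at of FGFR1 (6.93) and 211401_s_at of FGFR2 (4.37). It was also the highest on 208441_at of IGF1R (4.57) and 226216_at of INSR (6.14). The median deviation of the 10 genes from their group mean was -0.37 on small array 2 and between 0.07 and 0.19 on the other small arrays. Among large arrays, array 2 was the lowest for 5 genes, array 1 for 4 and array 4 for 1. Without small array 2 the median difference of the receptors was -0.78, and KIT and FGFR2 were the 2 genes called.

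**Figure D4:**
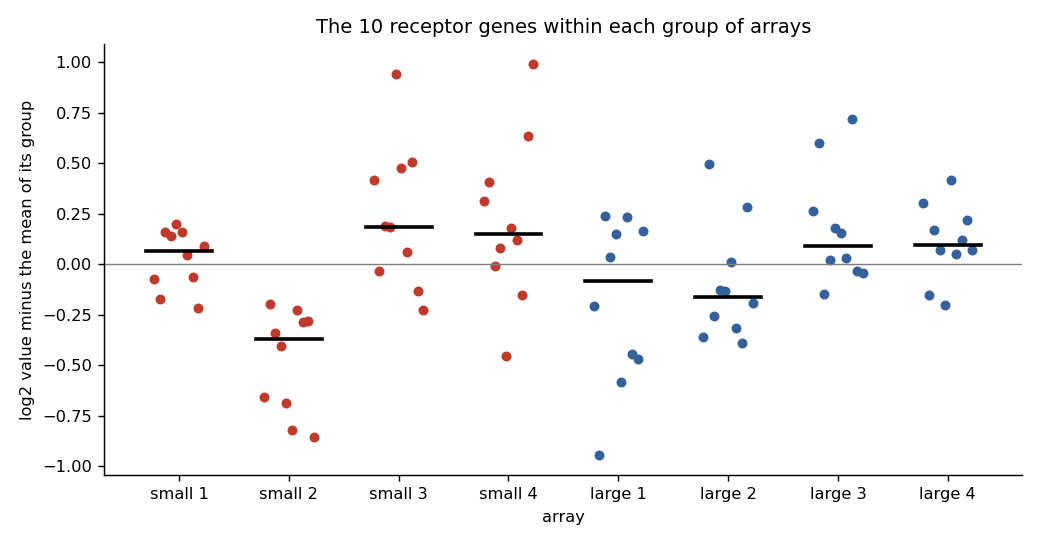
Log2 value of the probe set that stands for each of the 10 receptor genes, minus the mean of its own group, by array. Black bars are at the median of the 10 genes. On small array 2 all 10 points lie below 0 with a median of -0.37, while the medians of the other 7 arrays lie between -0.16 and 0.19.

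The number of receptors called depended on which arrays were in the fit, as did the number of all genes called. With 1 array left out it was 1 without small array 1 or large array 4, 2 without small array 2 or large array 3, 3 without large array 2, 4 without small array 3, and 5 without small array 4 or large array 1. In the same fits between 62 and 553 of all genes were called. The median difference of the receptors minus that of all genes ran from -1.17 to -0.84 over these 8 fits. FGFR2 was called in each of them.

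**Figure D5:**
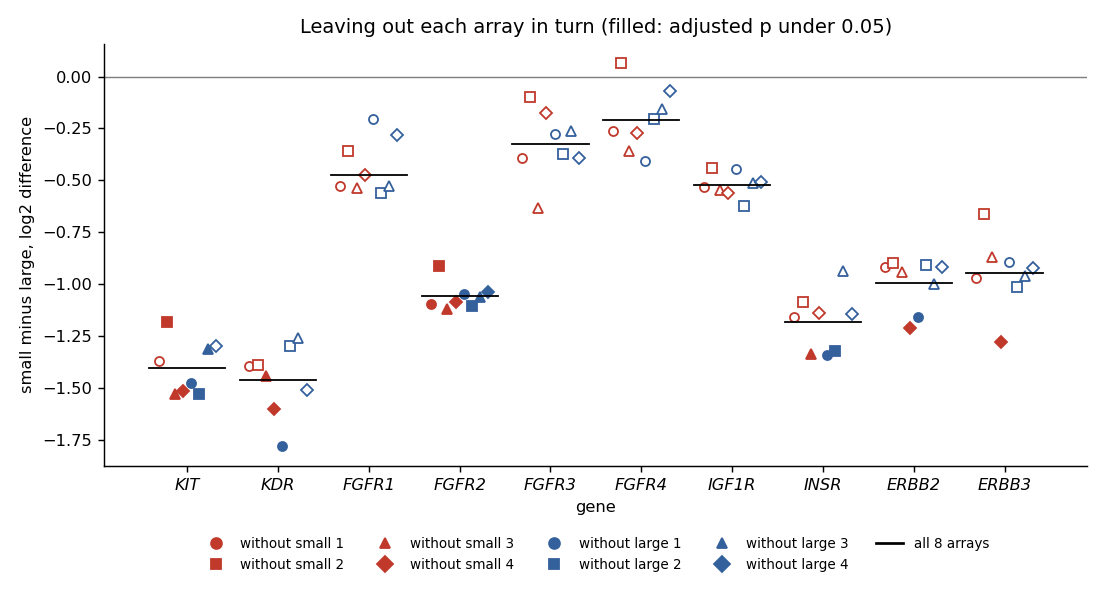
Log2 difference, small minus large, of the 10 receptor genes with each array left out in turn (red, small arrays; blue, large arrays), with the value of all 8 arrays as a black line. Filled symbols passed an adjusted p of 0.05. FGFR2 is filled in 8 of 8 fits, KIT in 6 and KDR and INSR in 3 each, and the one value above 0 is FGFR4 without small array 2.

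The identity of the cells and the quality of the RNA were read from the same arrays. NANOG ranged from 10.58 to 10.77 on small and from 10.65 to 10.81 on large arrays (-0.05 ± 0.10 SE, adjusted p = 0.847 in limma), and SOX2 was at -0.17 ± 0.12 SE (adjusted p = 0.505). Of 10 tested embryonic stem cell markers 2 were lower, the surface proteins PODXL (-0.98 ± 0.15 SE, adjusted p = 0.00754) and EPCAM (-0.54 ± 0.11 SE, adjusted p = 0.0236, called in 3 of 8 fits with 1 array left out), and the log2 of their summed level was 14.29 to 14.49 on small and 14.50 to 14.70 on large arrays. For the cell types in which KIT and KDR are best known, 0 of 7 tested endothelial and blood progenitor markers were called, with summed levels of 7.94 to 8.58 on small and 7.99 to 8.497 on large arrays, and CDH5, TIE1, SPI1, PTPRC and ESAM were too dim to test. The smallest p among the 7 were those of TEK (-0.38 ± 0.26 SE) and GATA2 (0.72 ± 0.54 SE). Of 8 tested mast cell, melanocyte and neural crest markers, PMEL, a melanosome protein gene, was lower (-1.43 ± 0.22 SE, adjusted p = 0.00754), and the summed level was 8.67 to 9.09 on small and 9.49 to 10.10 on large arrays. The sum is of linear intensities, and PMEL was the brightest of the 8, at 7.99 on small and 9.42 on large arrays, so the sum mostly follows PMEL. The other 7 markers of that list did not pass, and TYR, HDC and PAX3 were too dim to test. Of the 8 markers, 4 were negative and 4 positive, with a median of 0.06. Summed neuroectoderm markers were at 10.12 to 10.25 on small and 9.81 to 9.996 on large arrays, with 0 of 5 called and all 5 positive. The brightest of the 5 were OTX2, with a mean of 9.33 on small and 9.02 on large arrays, and NES (8.77 and 8.56). This sum mostly follows OTX2 and NES. Of the 5, PAX6 was at 1.77 ± 0.52 SE (adjusted p = 0.106), with 5.13 to 5.87 on small arrays and 2.74 to 5.63 on large arrays. OTX2 was at 0.31 ± 0.14 SE (adjusted p = 0.293) and NES at 0.21 ± 0.16 SE (adjusted p = 0.554). Large array 1 stood at the small arrays' level of PAX6, above the other large arrays. Of 8 tested fibroblast markers, which also bear on the feeder cells, 0 were called, and their summed levels overlapped, at 11.21 to 11.96 on small and 10.73 to 11.97 on large arrays. One of them, VIM, which encodes vimentin and is also expressed by many other cell types, was at 1.12 ± 0.30 SE (adjusted p = 0.0723) with every small array above every large array, as in 4.94% of all genes, at 10.37 to 10.97 on small and 8.41 to 10.32 on large arrays. COL1A1 was at -0.59 ± 0.28 SE (adjusted p = 0.31). Mesoderm markers (0 of 5 called, FOXF1 at -0.74 ± 0.50 SE and HAND1 at -0.38 ± 0.32 SE) and trophoblast and epithelial markers (0 of 4 called, KRT18 at 0.39 ± 0.15 SE and HAND1 again) had overlapping sums. FOXF1 was dim, with a mean of 3.28 on small arrays, under the limit for testing, and 4.02 on large arrays. The part of these markers in the receptor differences was not tested.

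A sign of RNA quality is how much brighter the 3 prime control probe sets of GAPDH and ACTB are than the 5 prime ones, a log2 difference that grows as RNA is degraded. Averaged over both genes it was 2.36 ± 0.30 (SD, n = 4) on small and 2.12 ± 0.53 (SD, n = 4) on large arrays (exact two-sided permutation p = 0.4), and large array 1 had the highest value at 2.91, against 1.83 to 1.89 on the other large arrays. With this measure as a covariate the median of the receptors was -0.99 and 3 were called, KIT, KDR and FGFR2, with 1.05% of all genes called. The median of the receptors was -0.96 without large array 1 and small array 3, the array of each group with the highest value. Before normalization the arrays differed in overall brightness, with a 75th percentile of 41.9 units on the dimmest and 105.6 on the brightest array.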

How the data were processed

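Total RNA of sorted H1 cells was measured on 8 arrays of 1 colour, 4 small and 4 large, grouped by sample title. The deposited values are linear intensities, 1 for every probe set on every array; per the series design text scans were imported into Rosetta Resolver (version 7.1), but the authors' background correction and scaling are not given in these sources. To each value 1.813 was added as a pseudocount (the 10th percentile over the table), log2 was taken and arrays were quantile normalized, so folds of dim genes are understated. The 62 controls were left out, and probe sets with a mean above the 40th percentile (3.62) were tested, which left 32768. The platform annotation gave 41091 probe sets 1 symbol, of which 41037 were updated by gene ID. A gene was represented by its tested probe set with the highest mean (14726 genes). Small minus large was tested with limma 3.58.1 in R 4.3.3 (lmFit, eBayes with a variance trend), two-sided, with Benjamini-Hochberg adjustment over all genes, or all probe sets, and a threshold of 0.05. The procedure was tested on simulated data of 32768 probe sets. All 4 sizes of change were set in 1 simulated table, with noise drawn independently for each probe set and no other probe set changed. Of 50 changed probe sets per size, it called 2 at a log2 change of -0.5, 13 at -1, 24 at -1.5 and 35 at -2. These shares belong to that table and are not the rates of the reported fits, where 491 of all probe sets were called. A gene that did not pass may therefore still differ. Exact permutation tests served for log2 ratios of 9 receptor pairs and for quality measures. The median standard error over genes was 0.24.

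Named genes were all members, up to 4 called genes of each list with the largest differences or, with none called, the 2 with the smallest p, NANOG, SOX2 and the 3 genes nearest in profile to each called receptor; GRB2, KITLG, FGF2, PDGFRA, TMEM165 and LRIG1 were added after their values were seen. The members, lists and settings were chosen with earlier results of these data known. Beside leaving out each array, 15 alternatives were run. Genes of the lists without a tested probe set assigned to them alone were not analysed here. Promoter windows came from a table of RefSeq windows (GRCh38.p14), in which 8 of the 10 genes were matched by symbol.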

Additional observations from a re-analysis of the deposited data

Results flagged for a closer look

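ERBB2 on small array 4 stood apart from the other small arrays, at a log2 intensity of 7.42 against 6.50 to 6.65 on small arrays 1 to 3. Its gap to the nearest small array made up 0.836 of the range of the group, above Dixon's 95% critical value for 4 samples. It was the 1 case among 20 groups of 4 arrays examined for the 10 receptors, and chance alone marks about 1 in 20. Without this array ERBB2 was at -1.21 (adjusted p = 0.0148 in limma), against -0.99 with all arrays.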

How the results depend on the processing

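The direction of the 10 receptors was negative under the 15 alternatives and with each array left out, except FGFR4, which ran from -0.41 to 0.065 with 1 array left out, the highest without small array 2, and except that KIT, FGFR2, FGFR3 and ERBB2 have no value once _x_at and _s_at probe sets are dropped, where the pairs of receptors could therefore not all be compared. Calls were less stable than directions. In limma the deposited scaling, median centring and the fit without a variance trend each called 0 receptor genes, 0 receptor probe sets, 0 pathway genes, 0 of all genes and 3 of all probe sets, with 6, 6 and 8 receptors and 494, 1575 and 2234 of all genes at an unadjusted p under 0.05. The median of all genes was -0.05 on the deposited scaling and 0.05 in the reported fit, and the receptor median lay 1.02 below it in both (-1.02). With the 3 prime to 5 prime covariate 3 receptors, 1 pathway gene, 155 genes and 296 probe sets were called, against 5, 3, 293 and 491 as reported. Array weights called 11 pathway genes, 824 genes and 1131 probe sets, and leaving out large array 1 and small array 3 called 9, 776 and 1148. Without _x_at and _s_at probe sets, 1 of 6 receptors and 190 genes were called. Pathway genes called were 1 with 75th percentile scaling or no filter and 5 when the probe sets of a gene were averaged. A replicate block called 7 receptor genes (IGF1R, adjusted p = 0.0297, and ERBB3, adjusted p = 0.028, beside the 5 reported), 13 receptor probe sets, 9 pathway genes, 753 genes and 1205 probe sets. Deviations from the group means correlated at 0.11, 0.13, 0.23 and 0.01 for numbers 1 to 4, and 3 of 4 small arrays matched their own number best, a hint of a link in the data. The numbers were not taken as a pairing, since the labels state no shared sort and the fourth pair was near 0. With 1 array left out, calls ran from 1 to 5 for receptor genes, 1 to 8 for receptor probe sets, 1 to 6 for pathway genes, 62 to 553 for all genes and 49 to 788 for all probe sets. Of the other named genes, signs turned for PIK3CD when probe sets were averaged (-0.15), for NANOG with median centring (0.14), 75th percentile scaling (0.14) and averaged probe sets (0.11), and for SOX2 with median centring (0.0018) and 75th percentile scaling (0.00). PDGFRA turned on the deposited scaling (-0.12), with array weights (-0.015) and when the arrays large 1 and small 3 were dropped (-0.14). Leaving out single arrays, it ran from -0.11 to 0.19 and GATA2 from -0.079 to 1.04. Receptor pairs had 0 passes in every setting in which they were computed. Causes of these changes were not tested.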

Other observations

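For each called receptor, the tested genes with the most similar profile over the 8 arrays were sought, as the smallest root mean square distance between log2 values centred on the mean of each gene. The nearest to KIT were LEMD3, a protein of the inner nuclear membrane (distance 0.147), VPS13A, a lipid transfer protein (0.183), and MARCHF6, a ubiquitin ligase of the endoplasmic reticulum (0.189), against a median distance of 0.877 over all genes. FGFR2 was closest to PPP1R9A (0.115), SNX16 (0.145) and CELSR3 (0.147). The genes nearest to INSR were the cadherin superfamily member PCDH8 (0.169), the saposin precursor PSAP (0.189) and GOLIM4 (0.207). For ERBB2 they were the mitochondrially encoded COX2 (0.164), SLC2A13 (0.173) and MOGS (0.175). KDR had no gene as near, with GALNT2 at 0.286, SLC1A5 at 0.297 and APLP2 at 0.302. None of these 15 genes is another receptor of the set. They were selected for their likeness over arrays that include both fractions, so their small minus large differences are no independent result.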
